A study of Mus musculus with 6 samples.

Results

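The 9 genes followed here encode the machinery of MHC class I antigen presentation: the heavy chains H2-K1 and H2-D1, their light chain B2m, the peptide transporter subunits Tap1 and Tap2, the loading factor Tapbp, and the inducible catalytic subunits of the immunoproteasome, Psmb8, Psmb9 and Psmb10. They were chosen by gene symbol. All 9 were measured, out of 18193 genes on the array, through 26 probe sets that the platform annotation gives to 1 gene each. RNA came from the retinal pigment epithelium (RPE), the cell layer that nourishes photoreceptors and recycles visual pigment, and was read on 6 Affymetrix arrays. All mice were BALB/c, an albino strain, and all were kept in the dark for 1 week. For 3 arrays, labelled light-damaged, the mice then received 1.5 h of white fluorescent light at 6000 lux, and RNA was taken from the RPE 24 h later. The other 3 arrays, labelled dark-adapted, came from mice without that exposure. The labels give no age or sex and do not say whether each array is a separate animal or a pool. The p-values therefore measure only how far these arrays spread, which may be technical variation.

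Class I molecules carry peptides from inside the cell to its surface, where CD8 T cells read them and natural killer cells sense their absence. The proteasome cuts the peptides, the TAP transporter moves them into the endoplasmic reticulum, and tapasin helps to load them onto the heavy chain and beta-2 microglobulin. Interferons are known to induce the whole set, including the 3 immunoproteasome subunits, which take the place of the standard catalytic subunits. The eye keeps class I low in many of its cells, as part of its immune privilege.

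Values are log2 expression, and differences are light-damaged minus dark-adapted on that scale, ± standard error, with 3 arrays per group. Arrays were compared within replicate pairs by limma. A gene was called at a p under 0.05 after Benjamini-Hochberg adjustment over the 18193 genes. RNA of other cells was present: 10 of 12 RPE markers and 8 of 10 photoreceptor markers lay among the top 10% of all genes by level. Rpe65, the isomerase that defines the RPE, averaged 13.77 in light-damaged and 14.38 in dark-adapted samples. On the first principal component, replicate 1 lay far from the rest in each group, at -68.73 (light-damaged) and -38.60 (dark-adapted), against 18.76 to 34.02 for the remaining 4 arrays. In bulk RNA, fewer cells of a type and less RNA per cell cannot be told apart.

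All 9 genes had a positive difference in 3 of 3 pairs, as did 19.9% of all genes, and 5 of 9 passed the test: Tap1, Tapbp, Psmb8, Psmb9 and Psmb10. Over all genes 4.99% were called, 3.07% as higher and 1.92% as lower. The 5 rose by 1.54-fold to 2.21-fold, with adjusted p-values from 0.0098 to 0.0355. H2-K1, H2-D1, B2m and Tap2 did not pass, with differences of 0.24 to 0.65 and adjusted p-values from 0.0627 to 0.31. The median difference of the 9 was 0.65, against a median of -9.4e-05 over all genes. In 7 of the 9 genes, all light-damaged arrays lay above all dark-adapted arrays, an arrangement found in 6.61% of all genes, or 10.3% when both directions are counted. The calls depended on the pairing and on single pairs: without the replicate block 0 of the 9 passed (9 of all 18193 genes did, 0.0495%, all of them higher), while 7 of the 9 had an unadjusted p under 0.05, as did 5.94% of all genes. With the block, 8 of the 9 were called without replicate 1, 3 without replicate 2 and 0 without replicate 3, while 1245, 677 and 228 of all 18193 genes were called in these fits. The fit without replicate 3 had 7 of the 9, and 13.1% of all genes, at an unadjusted p under 0.05. The pairing of the numbers is clearest for replicate 1. In deviations from the group mean, light-damaged 3 with dark-adapted 2 (0.65) and light-damaged 2 with dark-adapted 3 (0.61) correlated about as well as the replicate 2 pair (0.62).

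**Figure D1:**
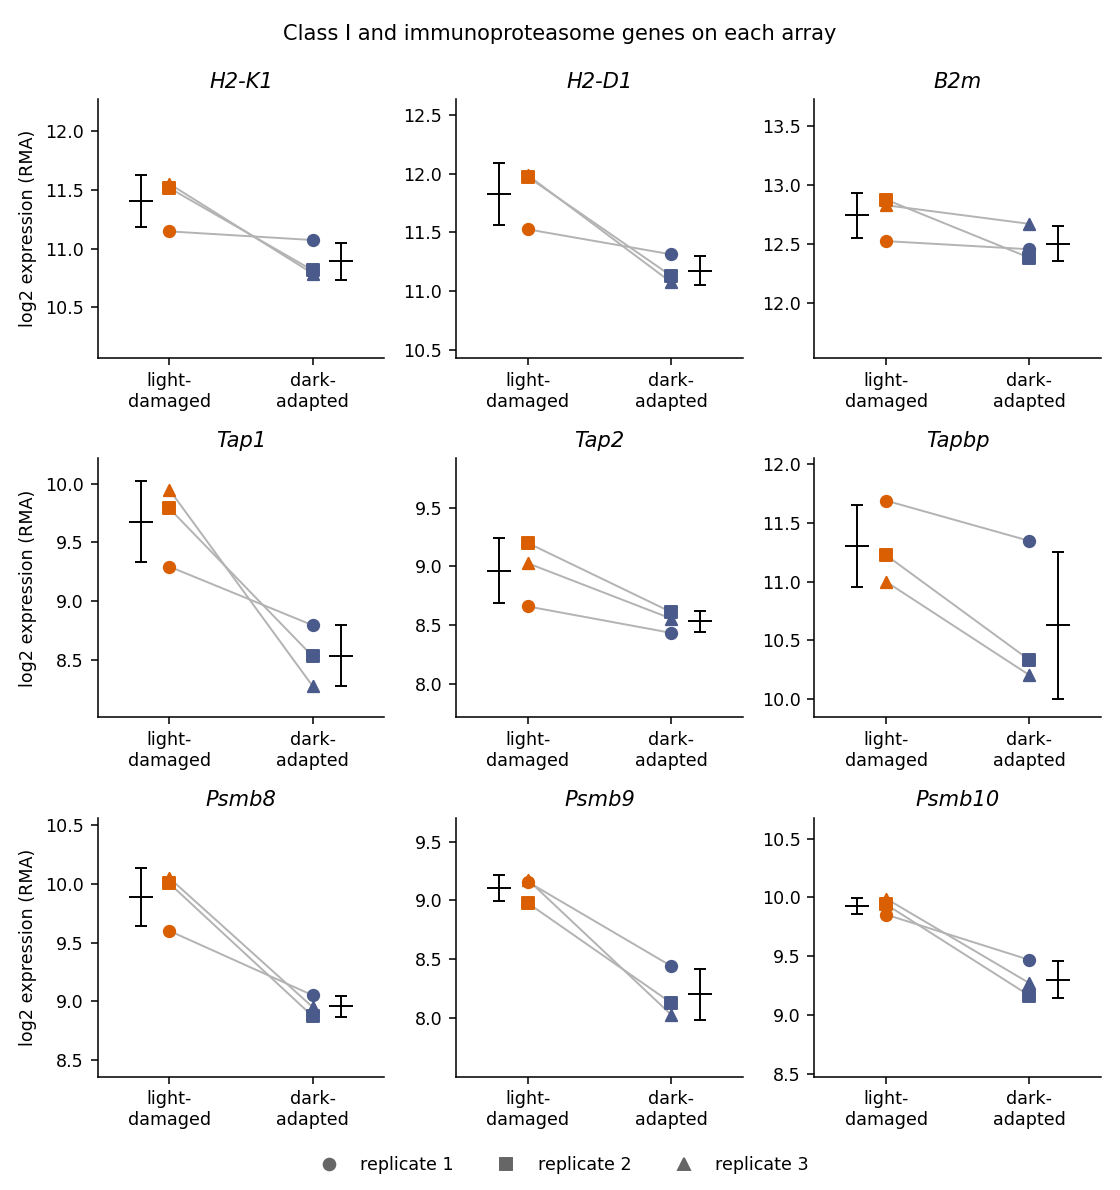
Log2 expression of the 9 genes on each array, light-damaged on the left and dark-adapted on the right of each panel, with grey lines joining arrays of the same replicate number and black bars for the group mean ± SD (n = 3). Every line falls toward the dark-adapted side, and the groups overlap for B2m and Tapbp.

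The immunoproteasome subunits are described first, since all 3 rose. Psmb9 (LMP2) is the inducible subunit that replaces the caspase-like Psmb6. Its level was 9.16, 8.98 and 9.18 in light-damaged replicates 1, 2 and 3, against 8.44, 8.13 and 8.03 in the dark-adapted ones. The 2 groups did not overlap, and each light-damaged array was above every dark-adapted one. Psmb9 rose by 0.90 ± 0.11, or 1.87-fold (limma adjusted p = 0.0098).

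Psmb8 (LMP7), which replaces the chymotrypsin-like Psmb5, had 9.60, 10.002 and 10.05 in light-damaged samples, against 9.05, 8.87 and 8.95 in dark-adapted samples. The light-damaged array of replicate 1 was the lowest of its group and still above all controls. The rise was 0.92 ± 0.13, or 1.90-fold (limma adjusted p = 0.0168).

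Psmb10 (MECL-1), which replaces the trypsin-like Psmb7, had 9.85, 9.94 and 9.99 in light-damaged samples, against 9.47, 9.17 and 9.27 in dark-adapted samples. Light-damaged arrays lay close together, with an SD of 0.07 against 0.15 in the dark-adapted group. Psmb10 rose by 0.63 ± 0.11, or 1.54-fold (limma adjusted p = 0.0292). A second, dim probe set of Psmb8 gave 0.42, and Psmb9 and Psmb10 had 1 probe set each.

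The standard subunits that these 3 replace did not pass. Psmb5 had a difference of 0.20 ± 0.09 (limma adjusted p = 0.29), Psmb6 of 0.18 ± 0.08 (limma adjusted p = 0.34) and Psmb7 of -0.04 ± 0.09 (limma adjusted p = 0.88). For Psmb5 and Psmb6 all light-damaged arrays still lay above all dark-adapted ones, as in 6.61% of all genes, and Psmb7 overlapped. By level the 3 lay at the 96.7th, 96.8th and 94.7th percentile of all genes, and RMA compresses differences of very bright probe sets. The part of this compression was not tested. The 11 other subunits of the 20S core had a median difference of 0.05, with 0 called. The inducible minus standard log2 ratio, taken within each array, was higher in light-damaged samples in 3 of 3 pairs for each of the 3 subunit pairs. The log2 ratio of Psmb8 to Psmb5 differed by 0.72, by 0.28, 1.03 and 0.87 in pairs 1, 2 and 3. That of Psmb9 to Psmb6 differed by 0.73, by 0.58, 0.66 and 0.95 in the same pairs, and that of Psmb10 to Psmb7 by 0.66, by 0.54, 0.70 and 0.75. All light-damaged ratios lay above all dark-adapted ones, and each exact two-sided permutation test gave p = 0.10, also when adjusted over the 3, which is the smallest p that 20 assignments allow. The test therefore could not pass 0.05 in this design.

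**Figure D2:**
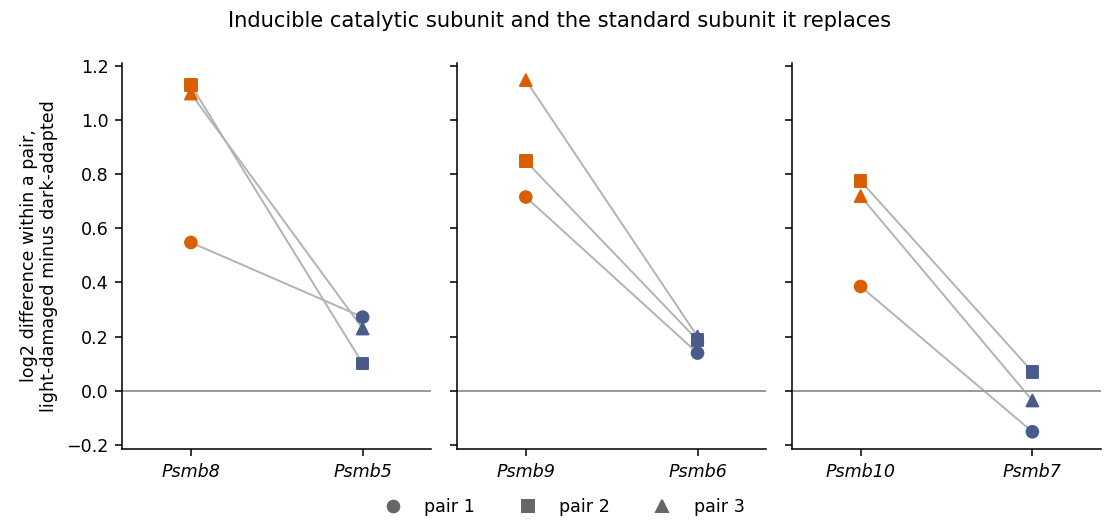
Log2 difference, light-damaged minus dark-adapted, within each replicate pair for the inducible subunit (left of each panel) and the standard subunit it replaces (right). In each pair the inducible subunit's difference is larger, from 0.38 for Psmb10 in pair 1 to 1.15 for Psmb9 in pair 3, while the standard subunits lie between -0.15 and 0.27.

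Tap1 encodes one of the 2 chains of the peptide transporter and had the largest difference of the 9 genes. Its level was 9.29, 9.79 and 9.95 in light-damaged replicates 1, 2 and 3, against 8.80, 8.53 and 8.28 in dark-adapted ones. The groups did not overlap, and the differences within pairs 1, 2 and 3 were 0.50, 1.26 and 1.67. Tap1 rose by 1.14 ± 0.21, or 2.21-fold (limma adjusted p = 0.0334). The other 3 probe sets annotated to Tap1 were dim, at mean levels of 5.29 to 6.08 against 9.11 for the one used, and gave differences from -0.08 to 0.14. With the mean of all 4 the difference was 0.30 (limma adjusted p = 0.077).

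Tap1 and Psmb9 lie head to head on chromosome 17, followed by Psmb8 and Tap2 as the next genes on the chromosome. The stretch between the annotated starts of Tap1 and Psmb9 is shown because these neighbours, both called, share it as upstream sequence. It runs over chr17:34187331-34187555 (RefSeq, GRCm38.p6, C57BL/6J), is 225 bases long and is written on the plus strand, in the direction of Tap1. Capitals mark a Y box (ATTGG, here on the minus strand) and an X2-like element (TGACG), sequences known from class I promoters.
Tap1 and Psmb9: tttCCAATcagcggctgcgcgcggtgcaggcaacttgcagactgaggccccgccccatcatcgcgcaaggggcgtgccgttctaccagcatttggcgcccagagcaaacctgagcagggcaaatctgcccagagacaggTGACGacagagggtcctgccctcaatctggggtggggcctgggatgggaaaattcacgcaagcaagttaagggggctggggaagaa

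Tap2, the second chain of the transporter, had 8.66, 9.20 and 9.03 in light-damaged samples, against 8.44, 8.61 and 8.56 in dark-adapted samples. The groups were apart, but light-damaged replicate 1 lay just above the highest control. The difference was 0.43 ± 0.10 and did not pass (limma adjusted p = 0.0745), and it passed without replicate 1 at 0.53 (limma adjusted p = 0.0234). Tapbp encodes tapasin, which bridges the transporter and the heavy chain. Its level was 11.69, 11.22 and 10.998 in light-damaged samples, against 11.34, 10.33 and 10.20 in dark-adapted samples. Both replicate 1 arrays were the highest of their group, so the groups overlapped although the difference was positive in each pair, at 0.34, 0.89 and 0.79. Tapbp rose by 0.68 ± 0.13, or 1.60-fold (limma adjusted p = 0.0355), and its dimmer second probe set gave 0.41. Without the block the adjusted p of Tapbp was 1.00, the highest of the 5 called genes.

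The chains of the class I molecule itself had positive differences that did not pass the test. H2-D1, a classical heavy chain, had 11.53, 11.97 and 11.99 in light-damaged samples, against 11.31, 11.13 and 11.08 in dark-adapted samples. All light-damaged arrays were above the controls, by the narrowest margin in replicate 1. The difference was 0.65 ± 0.15, or 1.57-fold, with a limma adjusted p of 0.0627. H2-D1 passed in 5 of 14 alternative analyses, 4 of them named here: a random replicate block, renewed quantile normalization, array weights and the fit without replicate 1, where it was 0.87.

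H2-K1, the other classical heavy chain of the list, had 11.15, 11.51 and 11.55 in light-damaged samples, against 11.07, 10.81 and 10.79 in dark-adapted samples. In replicate 1 the light-damaged and dark-adapted arrays nearly coincided, and in replicates 2 and 3 they were clearly apart. The difference was 0.51 ± 0.15 (limma adjusted p = 0.12), made up of 0.07, 0.70 and 0.76 in pairs 1, 2 and 3, and it was 0.73 without replicate 1 (limma adjusted p = 0.0072).

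B2m, the invariant light chain of all class I molecules, had 12.53, 12.88 and 12.83 in light-damaged samples, against 12.46, 12.38 and 12.67 in dark-adapted samples. The groups overlapped, since light-damaged replicate 1 was below dark-adapted replicate 3. The difference was 0.24 ± 0.11 with a 95% interval of -0.02 to 0.51 (limma adjusted p = 0.31), and B2m passed in 0 of 14 alternatives. Pair 2 gave 0.49 against 0.07 in pair 1 and 0.16 in pair 3, and without replicate 2 the difference was 0.11 (limma adjusted p = 0.78). A second probe set of almost the same level gave 0.23. B2m was at the 98.3rd percentile of all genes by level.

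Class I heavy chains are highly variable and alike in sequence. BALB/c mice carry the d haplotype of the H2 locus, with a further classical chain, H2-L, that the C57BL/6 reference strain lacks, so a probe set named H2-D1 or H2-K1 may also bind other heavy chains. All 4 probe sets of H2-K1 and 7 of 9 of H2-D1 are of the x_at type, which can bind related transcripts. Their mean differences were all positive, from 0.18 to 0.51 for H2-K1 and from 0.01 to 0.71 for H2-D1, and 0 of the 13 passed over all 34945 single-gene probe sets. The representatives of both genes were positive in 3 of 3 pairs, but every other H2-K1 probe set, and several of H2-D1, in 2 of 3 only. An H2-K1 probe set had 9.91 in light-damaged and 10.05 in dark-adapted replicate 1, and an H2-D1 one had 10.61 and 10.76. The 3 brightest H2-D1 probe sets gave 0.65, 0.69 and 0.71 and had smaller differences in replicate 1 than in the other replicates. The 5 probe sets of the 9 genes that passed were the representatives of Tap1, Tapbp, Psmb8, Psmb9 and Psmb10, while 2.38% of all single-gene probe sets were called as higher. How much of the H2-K1 and H2-D1 signal came from other heavy chains was not tested.

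**Figure D3:**
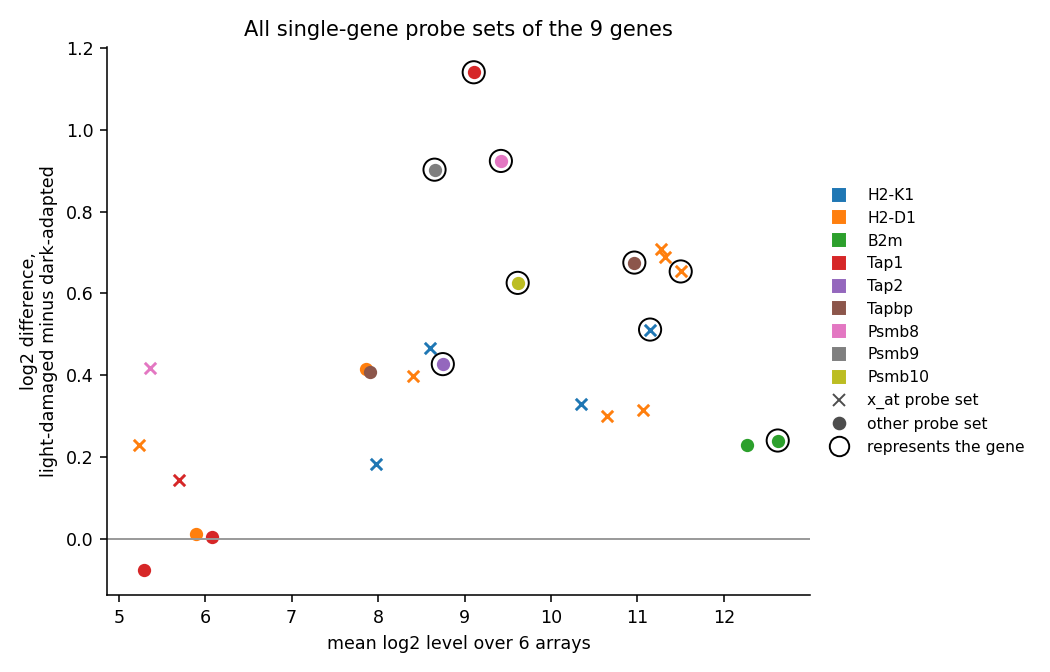
All 26 single-gene probe sets of the 9 genes by mean log2 level over 6 arrays and by log2 difference, light-damaged minus dark-adapted. Crosses are x_at probe sets and rings mark the probe set that stands for its gene; 25 of 26 lie above 0, and those near 0 are dim.

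The promoters of H2-K1, H2-D1 and B2m are shown because they share a set of elements known from class I regulation, although none of these genes passed the test. Capitals mark a kB-like element (GGGA and CC with 4 bases between them), the core of an interferon response element (AANNGAAA), an X2-like element (TGACG) and a Y box (ATTGG), each searched on both strands. The sequences are from RefSeq, GRCm38.p6, which is the C57BL/6J genome and not that of BALB/c. H2-K1 is chr17:34000334-34000464 on the minus strand, H2-D1 is chr17:35262917-35263051 on the plus strand, and B2m is chr2:122147544-122147644 on the plus strand, each read 5′ to 3′ toward its gene.
H2-K1: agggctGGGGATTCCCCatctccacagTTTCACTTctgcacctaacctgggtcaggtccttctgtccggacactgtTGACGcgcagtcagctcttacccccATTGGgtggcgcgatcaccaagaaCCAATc
H2-D1: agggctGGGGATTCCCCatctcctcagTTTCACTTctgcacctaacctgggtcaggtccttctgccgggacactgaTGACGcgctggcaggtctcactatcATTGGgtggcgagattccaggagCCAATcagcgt
B2m: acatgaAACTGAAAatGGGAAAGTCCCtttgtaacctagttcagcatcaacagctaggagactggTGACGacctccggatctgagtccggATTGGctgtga

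Over the first 131 bases the H2-K1 and H2-D1 stretches were 81.7% alike, and they hold the elements in the same order. In B2m the interferon response core stands before the kB-like element. Among 32851 promoter windows of the same length, the 250 bases before the start held a kB-like match in 17.6%, the interferon response core in 21.3%, the X2-like element in 17.8%, the Y box in 33.8%, and all 4 in 0.198%. The motifs were chosen after the sequences were seen, so these shares are background and no test of the printed promoters. The kB-like matches on both strands overlap in H2-K1, H2-D1 and B2m. The window of Tapbp held the Y box alone, and that of Psmb8 held none of the 4 but a gamma-activated site (TTCNNNGAA, found in 7.02%). The window of Psmb10 held no match to these letters. Tap2 has no entry. Among the standard subunits, which were not called, the window of Psmb6 held the interferon response core and the X2-like element, and that of Psmb5 held the X2-like element.

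**Figure D4:**
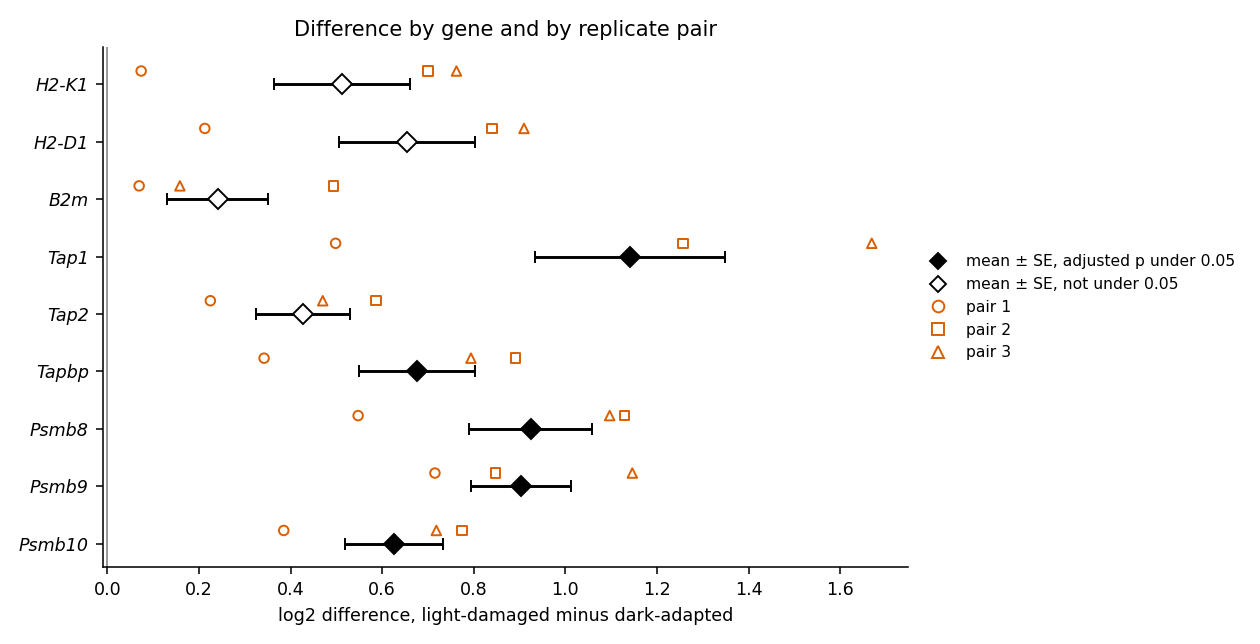
Log2 difference, light-damaged minus dark-adapted, of each gene as mean ± SE from the paired limma fit (diamonds, filled where the adjusted p was under 0.05) and within each replicate pair (open symbols). Pair 1 gives the smallest difference for all 9 genes, from 0.07 for B2m to 0.72 for Psmb9.

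In all 9 genes pair 1 had the smallest of the 3 differences, which held for 39.6% of all genes. It also held for 8 of 9 peptide loading genes, 7 of 8 proteasome activators and assembly factors and 9 of 11 other 20S core subunits. Among interferon-stimulated effectors it held for 12 of 19, among other class I and class I-like genes for 4 of 12, and among macrophage and microglia markers for 5 of 16. The median over the 9 was 0.34 in pair 1, 0.84 in pair 2 and 0.79 in pair 3. The 3′ minus 5′ log2 signal of the Gapdh controls, which grows as RNA is degraded or labelled short, was 2.48 in light-damaged and 2.45 in dark-adapted replicate 1, against 1.54 to 1.80 in the other 4 arrays. The part of RNA quality in the small pair 1 differences was not tested.

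Of the 17 other genes called over the pathway lists, 10 were interferon-stimulated effectors, 5 were regulators of class I transcription, and the remaining 2 were Psme1 and H2-DMa. Among 8 proteasome activators and assembly factors, Psme1, a chain of the interferon-inducible PA28 activator, rose by 0.53 ± 0.11 (limma adjusted p = 0.0428), and the other 7 did not pass. Its level was 10.60, 10.87 and 10.90 in light-damaged samples, against 10.29, 10.17 and 10.33 in dark-adapted samples, without overlap. The Psme1 call was lost without the replicate block, without replicate 2 and without replicate 3. The assembly factor gene Psmg4 had a difference of 0.39 (limma adjusted p = 0.057), and the list's median was 0.11.

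Of 9 genes for peptide loading and endoplasmic reticulum chaperones, 0 passed, with a median of 0.12. Erap1, the aminopeptidase that trims peptides for class I, had the largest difference there at 0.67 ± 0.16 (limma adjusted p = 0.0768). The translocon subunit Sec61a1 had 0.47 ± 0.11 (limma adjusted p = 0.0618), the tapasin-related Tapbpl 0.21 and the glycoprotein folding sensor Uggt1 0.22. The general chaperones of the loading complex, Calr, Canx and Pdia3, had differences of 0.12, -0.09 and 0.09.

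Of 23 listed other class I and class I-like genes only 12 were measured, and 9 of these lay below the median level of all genes. H2-L, H2-Q4, H2-Q7 and H2-T23 were among those not measured. Of the 12, 0 passed, with a median of 0.06. The iron regulator Hfe, which resembles class I, had a difference of -0.35 ± 0.09 (limma adjusted p = 0.10), and H2-M3, which presents formylated peptides, of 0.25 ± 0.10. For a list of receptors of lymphocytes and myeloid cells, most of them known to read class I, 0 of 10 passed, with a median of 0.07. All 10 receptors lay below the median level of all genes. The largest difference among them was that of Pilra, an inhibitory receptor of myeloid cells not known to read class I, at 0.52 ± 0.11 (limma adjusted p = 0.0584).

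Regulators of class I transcription gave 5 rises and no fall among 17 genes (29.4% higher), with a median of 0.17. Nlrc5, known as the transactivator of class I genes, rose by 1.50 ± 0.09, or 2.82-fold (limma adjusted p = 0.0010). Its level was 8.40, 7.61 and 7.87 in light-damaged samples, against 6.94, 6.19 and 6.26 in dark-adapted samples. The groups did not overlap, and the differences of 1.47, 1.42 and 1.60 in pairs 1, 2 and 3 were close together.

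Irf9, the DNA-binding part of the type I interferon complex, rose by 1.13 ± 0.19, and Stat3, which transmits IL-6 signals, by 1.02 ± 0.09. The myeloid factor Irf8 rose by 0.84 ± 0.10 and the interferon-induced factor Irf7 by 0.73 ± 0.10, with limma adjusted p-values of 0.0092 and 0.0133. Irf1, which drives immunoproteasome genes after interferon gamma, had a difference of 0.15 ± 0.13 (limma adjusted p = 0.63). The RFX subunits Rfx5, Rfxap and Rfxank, which bind the X box with Nlrc5, had differences of -0.11, 0.10 and -0.10.

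Of 11 interferon ligands, receptors and their kinases 0 passed, with a median of 0.11. The ligand genes Ifng, Ifnb1 and Ifna4 had differences of -0.15, 0.10 and -0.13, and the mean level of Ifng was 5.10 in light-damaged and 5.25 in dark-adapted samples. The type I receptor chain Ifnar2 had 0.42 ± 0.10 (limma adjusted p = 0.0699). Of 19 interferon-stimulated effector genes 10 rose and 0 fell. Their median was 0.62, led by the antiviral membrane protein gene Ifitm3 at 1.42 ± 0.10 and Ifit1 at 1.22 ± 0.09. The other 8 were Usp18, Irgm1, Oasl2, Igtp, Oas1a, Gbp3, Ifih1 and Oas2, with differences from 0.50 to 1.00. Among 9 genes of class II presentation H2-DMa, which helps to load class II, rose by 1.17 ± 0.18 (limma adjusted p = 0.0207), and the other 8 did not pass. Over all these pathway lists 17 genes were called, 0 of them without the replicate block and 6 without replicate 3.

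**Figure D5:**
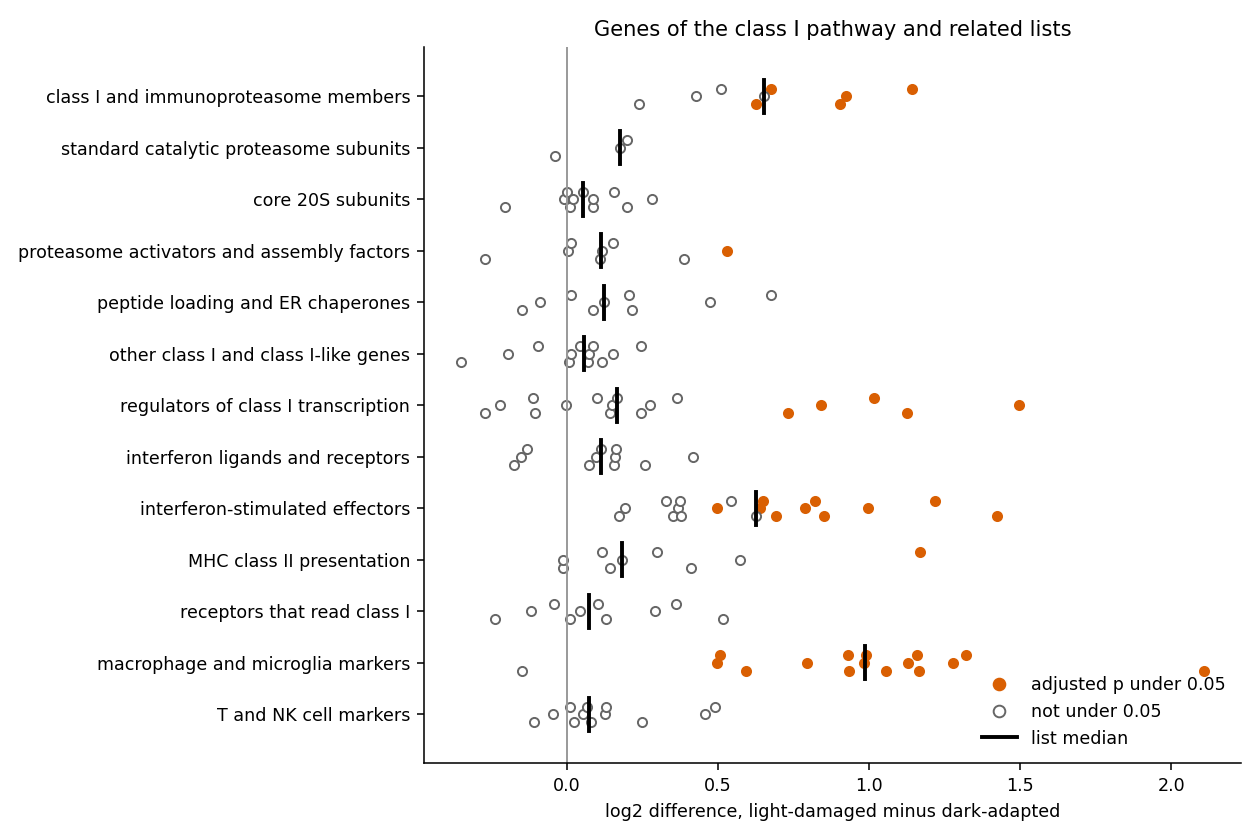
Log2 difference, light-damaged minus dark-adapted, of each measured gene by list, with filled points for an adjusted p under 0.05 in the paired limma fit and black bars for list medians. The 9 class I and immunoproteasome genes have a median of 0.65, interferon-stimulated effectors 0.62 and macrophage and microglia markers 0.99, while the standard proteasome, chaperone and receptor lists lie between 0.05 and 0.18.

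Markers of macrophages and microglia, cells that express class I and the immunoproteasome at high level, were mostly higher in light-damaged samples too. Of 16 markers 15 rose, and their mean level was 10.26 to 10.64 in light-damaged and 9.29 to 9.63 in dark-adapted arrays. Csf1r was the one that did not, at -0.15 ± 0.09. Their median difference was 1.06, 0.96 and 0.93 in pairs 1, 2 and 3, against 0.34, 0.84 and 0.79 for the 9 genes. Among light-damaged arrays the marker mean was highest in replicate 1 (10.64), where the mean of the 9 genes was lowest (10.38). Among dark-adapted arrays both means were highest in replicate 1. There the marker mean was 9.63, 9.29 and 9.40 in replicates 1, 2 and 3, and the mean of the 9 genes 10.04, 9.78 and 9.76. The part of these cells in the class I differences was not tested. Markers of T and NK cells gave 0 calls among 12, with mean levels of 6.91 to 7.30 in light-damaged and 6.81 to 7.07 in dark-adapted arrays. Of the 12, 10 had a positive difference, as did 49.9% of all genes. Nkg7 had 0.49 and Gzma 0.46, with limma adjusted p-values of 0.0683 and 0.057. Of 6 neutrophil markers 2 rose, with mean levels of 7.86 to 8.41 in light-damaged and 7.33 to 7.60 in dark-adapted arrays. RPE markers had a median of -0.44, with 2 of 12 lower. Photoreceptor markers also had a median of -0.44, with 0 of 10 positive and 3 lower (Pde6b, Rom1 and Nrl), and their mean level was 11.93 to 12.81 in light-damaged and 12.50 to 13.13 in dark-adapted arrays. Of 7 Mueller glia markers Gfap, a sign of glial activation, rose by 0.74 and Rdh10 fell by 0.74, and of 8 endothelial markers Vwf rose by 0.68.

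Across the 6 arrays, most of the 9 genes followed one another. The correlation of each gene with the scaled mean of the other 8 was 0.99 for Psmb8, 0.98 for H2-D1, Tap1 and Psmb10, and 0.97 for H2-K1. Psmb9 had 0.91, Tap2 0.82, B2m 0.70 and Tapbp 0.54. These are descriptions over 6 arrays in 2 groups and carry no test. Of all other genes, the closest to the mean profile of the 9 were the ferroxidase gene Cp with r = 0.997 and Irf9 with r = 0.996. Rplp0, Ttf2, Sla, Lrrc8c, Anxa4 and Rtp4 followed with r from 0.982 to 0.992. Cp averaged 12.67 in light-damaged and 10.98 in dark-adapted samples, a difference of 1.69. Since these genes were picked by likeness to a profile that already separates the groups, such a difference follows from the choice.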

How the data were processed

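The authors deposited log2 expression values per probe set; RMA, without a version, is named in the submitters' processing notes, and that the values are log2 was read from their range. RMA compresses differences of very dim and very bright probe sets. Each gene was represented by its single-symbol probe set (platform annotation of 2016) with the highest mean over all 6 arrays. The test was limma's moderated one (version 3.58.1, R 4.3.3, lmFit then eBayes, two-sided), with the replicate number as a block and 2 residual degrees of freedom, and without it as an alternative with 4. The labels do not say what a replicate number shares; around the group means, the 3 same-numbered pairs correlated at 0.89, 0.62 and 0.86, over a bound of 0.1. This rests mostly on replicate 1: light-damaged 3 with dark-adapted 2 correlated at 0.65 and light-damaged 2 with dark-adapted 3 at 0.61, and the replicate 3 minus replicate 2 differences of the groups at 0.33. The fit was tested on simulated data. It recovered 6 of 50 genes changed by 0.5 on the log2 scale and 45 of 50 changed by 1, with 9 false calls. A gene that did not pass may therefore still differ by about 0.5 or, less often, by about 1. Subunit ratios were compared by exact two-sided permutation. Alternatives changed the block, normalization, filter on dim genes, pseudocount, probe set choice, limma settings and array weights, or left out a replicate. Named genes are the 9 genes, every called gene or otherwise up to 4 genes of each pathway list with the smallest p, and the 8 most correlated genes; Calr, Canx, Pdia3, Tapbpl, Uggt1, Irf1, the RFX and interferon ligand genes and Csf1r were added after their values were seen. The members and lists were chosen with earlier results of these data known, and the motifs after the sequences were seen. Some list members are not analysed here. Printed coordinates are those of the RefSeq promoter table; the order of neighbouring genes came from the RefSeq gene table of GRCm38.p6.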

Additional observations from a re-analysis of the deposited data

How the results depend on the processing

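All 9 genes kept a positive difference in all 14 alternatives. The number of them called was 5, and it was 0 without the replicate block, 8 with array weights and 8 with no replicate block and both replicate 1 arrays left out; leaving out 1 replicate pair gave 0 to 8. Over all genes the count of 908 was 9 without the replicate block, 1875 with array weights and 228 to 1245 with a pair left out. It was 793 with no replicate block and both replicate 1 arrays left out. Over the pathway lists, 17 genes were called, 0 without the replicate block, 31 with array weights and 6 to 25 with a pair left out. With a pair left out 1 residual degree of freedom remains, and leaving out 1 array of a pair is the same fit. Psmb8 and Psmb9 were called in 12 of 14 alternatives, Tap1 and Psmb10 in 11 and Tapbp in 10, and H2-K1 and Tap2 in 3. The Psme1 call was lost without the replicate block (limma adjusted p = 0.36), with median centring, with eBayes trend and robust, and without replicate 2 or 3. The 3 subunit ratios differed by 0.57 to 0.95 in the 5 alternatives run for them. Apart from what their construction shows (fewer arrays, no pairing), the causes were not tested. With 3 arrays per group and no detection calls, small differences of dim probe sets could not be resolved.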

Other observations

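The 3 probe sets annotated to a class I heavy chain together with other genes were left out of the comparisons. The one annotated to both H2-K1 and H2-D1 had 8.24, 9.0 and 9.03 in light-damaged and 8.23, 8.10 and 8.27 in dark-adapted replicates 1, 2 and 3, so that the groups were level in replicate 1 and apart in replicates 2 and 3. The one annotated to H2-Q5 and H2-K1 had a difference of 0.14, and the one that also names H2-Q2 of -0.04.

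Class II and class I genes differed in how they spread over the pairs. For 7 of 9 class II genes the difference was largest in pair 1. Their medians were 0.40, 0.17 and 0.16 in pairs 1, 2 and 3. For all 9 class I and immunoproteasome genes the difference was smallest in pair 1. The same held for 8 of 9 peptide loading genes and 9 of 11 other 20S core subunits. H2-DMa had 1.74, 0.83 and 0.93 in the 3 pairs. Nlrc5 was higher on both replicate 1 arrays than on the other arrays of its group. This contrast between lists was seen in the data and was not tested.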
